A study of Mus musculus with 15 samples.

Results

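Kinesins, dyneins and myosins are the motor proteins that carry cargo and pull on the cytoskeleton, and their genes were followed here through the hippocampus of newborn mice given stress and morphine. A gene was taken as a motor gene when the annotation of its array probe set gave 1 symbol and that symbol began with Kif and a number, Klc, Dync, Dynl, Myo and a number, or Myh. For a gene with several probe sets the one with the highest mean over all 15 arrays was used. This gave 91 motor genes among 19938 genes with 1 symbol: 38 Kif genes, 3 Klc genes, 7 Dync genes, 5 Dynl genes, 24 Myo genes and 14 Myh genes. The choice used names only and no measured difference. Kif4-ps is named as a pseudogene of Kif4 and met the rule, but its probes may also read Kif4 itself, so both are uncertain.

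Kinesins and cytoplasmic dynein walk along microtubules, most kinesins outward towards the growing ends and dynein back towards the cell body, so that axons and dendrites depend on both. Another set of kinesins builds the mitotic spindle, and dynein 2 with some kinesins serves cilia. Myosins move on actin: class V and VI myosins move vesicles in spines and growth cones, non-muscle myosin II contracts the cell cortex, and the remaining heavy chains form the thick filaments of muscle.

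RNA came from the right hippocampus of male C57BL/6 mice at postnatal day 9, treated between postnatal days 5 and 9, and was measured on 15 Affymetrix gene arrays. There were 5 groups of 3 arrays. CC was left untreated. Mild stress was combined with saline (MSS) or morphine (MSM), and so was severe stress (SSS with saline, SSM with morphine). Strain and sex were shared by all groups, and litters had been reduced to a set maximum per dam. The labels state neither how mild and severe stress were imposed, nor the dose, nor which mice were littermates. A p-value here sets a difference only against the spread of arrays within groups, pooled over the 5 groups. That spread may be technical in part. Values are log2 intensities, on which a difference of 1 is a doubling, and the level of one gene's probes cannot be set against that of another's. Each comparison used limma's moderated test over all 15 arrays, two-sided. P-values were adjusted by the Benjamini-Hochberg method across all 19938 genes, with a threshold of 0.05. The deposited values carry no detection call, so it was not tested which dim probe sets, such as those of muscle myosins, lay above background.

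A few arrays stood apart. SSM replicate 3 lay above the other 14 arrays by a median of 0.16 over all genes and by 0.078 over the motor genes, and 28 motor genes (30.8%) had their highest value there, as did 48.8% of all genes. On SSM replicate 1 the mean of 6 striatal markers was 9.76, against 6.48 to 8.44 on the other arrays, and that of 8 ependyma and cilia markers was 6.70, against 5.95 to 6.30. The mean of 9 hippocampal neuron markers was 8.19 on SSM replicate 1 and 7.72 on MSM replicate 3, against 8.49 to 8.84 elsewhere. On SSM replicate 1, 15 motor genes (16.5%) had their highest value, against 8.96% of all genes, and 17 (18.7%) their lowest, against 10.96% of all genes. Choroid plexus markers averaged 5.61 to 5.65 on MSS replicates 1 and 2 and SSS replicate 2, and 6.74 to 7.80 on the others. The title of each array also carries an SS number, whose meaning is not stated. All mild stress arrays have 11 and all CC arrays 12, while the severe stress arrays have 8, 9 or 10, so that number and group cannot be told apart between CC, mild and severe stress.

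Morphine was compared with saline under severe stress first. The heavy chain of cytoplasmic dynein, Dync1h1, was lower in SSM by 0.37 (SE 0.11), the vesicle carrier Myo5a by 0.26 (SE 0.078), the neuronal kinesin Kif21b by 0.28 (SE 0.097), the mitochondrial myosin Myo19 by 0.24 (SE 0.082) and the class IX myosin Myo9a by 0.20 (SE 0.064). A further 9 were higher, among them the dynein subunits Dync2li1 and Dynlt3 and the conventional kinesin Kif5b. These 5 and 9 genes had an unadjusted p under 0.05, but 0 of the 91 passed limma's adjusted threshold (smallest adjusted p = 0.494), nor did any of the 19938 genes (0%).

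At unadjusted p under 0.05, 5 motor genes (5.49%) were lower in SSM, against 0.662% of all genes, and 9 (9.89%) were higher, against 8.71% of all genes. On the deposited scale the share of higher genes was thus near the background, and that of lower genes was above it. The lower genes were bright, with a median log2 level of 9.69, and the higher ones dim, with 5.46. That median was 6.31 for motor genes and 6.25 for all genes. How far brightness bears on these shares was not tested. All 3 SSM arrays lay below all 3 SSS arrays for 5 motor genes (5.49%), against 1.15% of all genes, and above them for 8 motor genes (8.79%), against 11.7%. The median difference of the 91 motor genes was 0.0049, and 48 of them had a positive difference. Over all genes the median was 0.056 and 74.0% were positive. Counts of positive differences in smaller sets below are to be read against that share. In bulk tissue fewer cells of a type and less RNA per cell cannot be told apart. SS number 8 is the only one to hold both groups, with SSM replicate 1 and SSS replicate 3. Between these 2 arrays, with no test, Dync1h1 differed by -0.38, Myo5a by -0.32, Myo9a by -0.17 and Myo19 by -0.23. Kif21b differed by -0.42, Dync2li1 by 0.33, Dynlt3 by 0.13 and Kif5b by 0.14. All but Kif21b had groups without overlap, so any such pair of arrays had to give the direction of the group means. Their directions within SS number 8 therefore say nothing about that number.

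**Figure D1:**
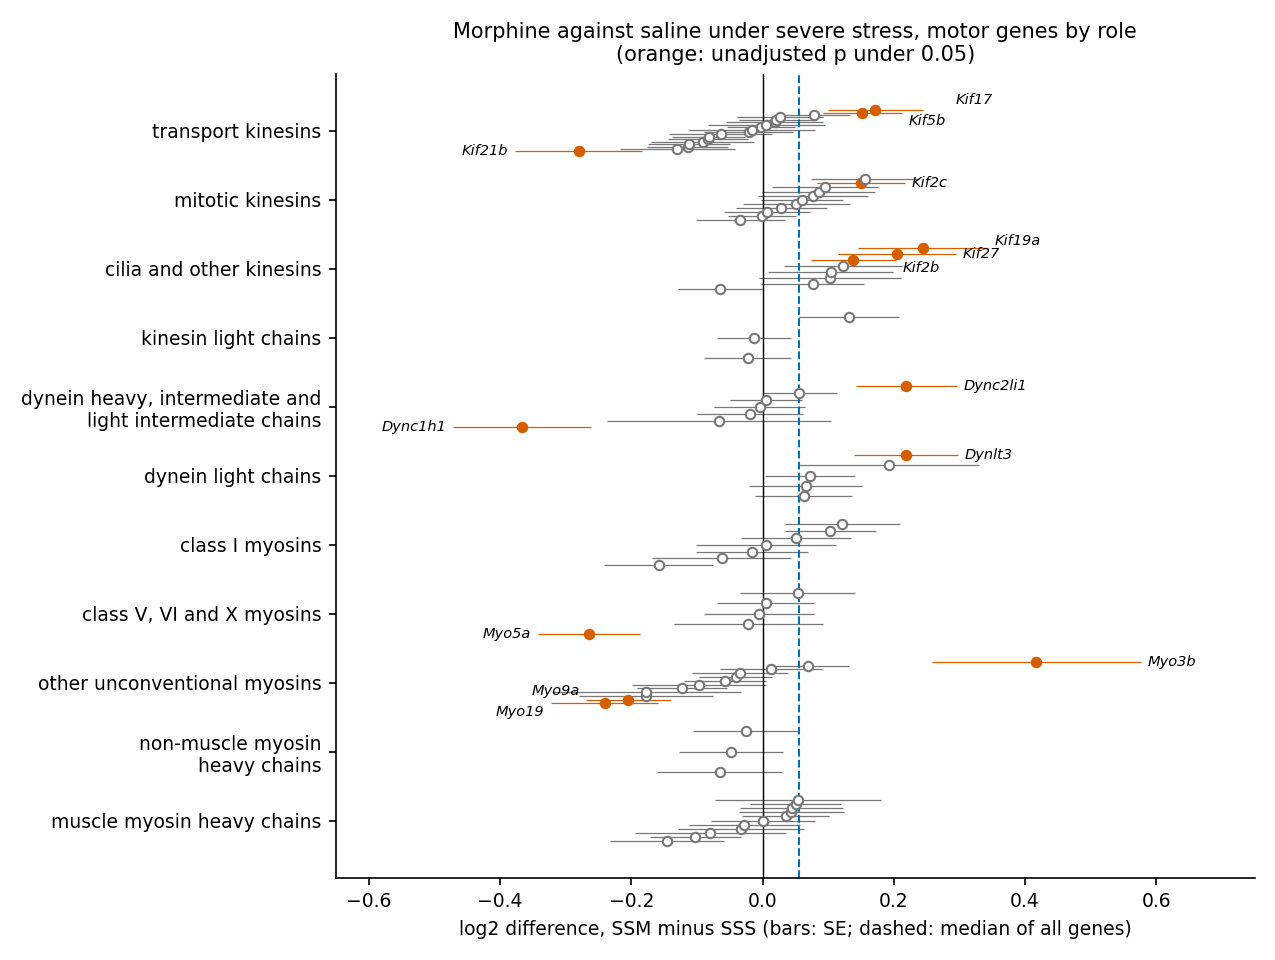
Log2 difference between SSM and SSS (horizontal axis, bars show the SE) for the motor genes in 11 roles, with Kif4-ps left out; filled orange points have unadjusted p under 0.05 and the dashed line marks the median of all genes, 0.056. Dync1h1 at -0.37 and Myo3b at 0.42 lie farthest from 0, and no gene passed the adjusted threshold.

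Among the dynein genes, Dync1h1 encodes the heavy chain that holds the motor of cytoplasmic dynein 1. Its log2 level was 10.24, 9.84 and 9.78 in CC, 10.29, 10.23 and 10.17 in MSS, 10.30, 10.24 and 10.20 in MSM, 10.30, 10.22 and 10.14 in SSS, and 9.76, 10.04 and 9.76 in SSM. All SSM arrays lay below all arrays of the other 3 stressed groups, while CC had 1 array at the level of the stressed groups and the other two within the range of SSM. SSM was lower than SSS by 0.37 (1.29-fold lower, SE 0.11), with an unadjusted p of 0.00349 and an adjusted p of 0.494. The other chains of dynein 1 had smaller differences, whose contrast with the heavy chain was not tested. Dync1i1 differed by -0.067 (SE 0.17), Dync1i2 by 0.0049 (SE 0.055), Dync1li1 by -0.0045 (SE 0.069) and Dync1li2 by 0.056 (SE 0.057). The heavy chain of dynein 2, Dync2h1, differed by -0.019 (SE 0.081).

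Dync2li1, the light intermediate chain of the dynein that returns cargo along cilia, stood at 6.35, 6.44 and 6.49 in CC, 6.28, 6.38 and 6.43 in MSS, 6.43, 6.37 and 6.35 in MSM, 6.44, 6.44 and 6.45 in SSS, and 6.78, 6.46 and 6.75 in SSM. SSM replicates 1 and 3 were the 2 highest arrays, and SSM replicate 2 was just above SSS and below 1 CC array. The difference from SSS was 0.22 (SE 0.077, adjusted p = 0.494). Dynlt3, a Tctex-type light chain that links dynein to cargo, stood at 8.55, 8.65 and 8.59 in CC, 8.59, 8.60 and 8.65 in MSS, 8.59, 8.48 and 8.78 in MSM, 8.67, 8.51 and 8.78 in SSS, and 8.91, 8.88 and 8.83 in SSM. All SSM arrays lay above all arrays of the other groups, and the difference from SSS was 0.22 (SE 0.079, adjusted p = 0.494). The 5 measured light chains all had positive differences, with a median of 0.072. Dynll1 and Dynlrb1, subunits shared by most dynein complexes, differed by 0.063 (SE 0.074) and 0.072 (SE 0.069), close to the median of all genes. After median centring of the arrays 4 of the 5 were positive, with a median of 0.0079. Dynlrb2, a light chain of ciliated tissue, had the widest range of the light chains: its SSM arrays read 6.08, 5.33 and 5.56 and its SSS arrays 5.49, 5.32 and 5.57. Its difference of 0.19 (SE 0.14) became -0.017 without SSM replicate 1, the array with the highest ependyma and cilia markers.

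**Figure D2:**
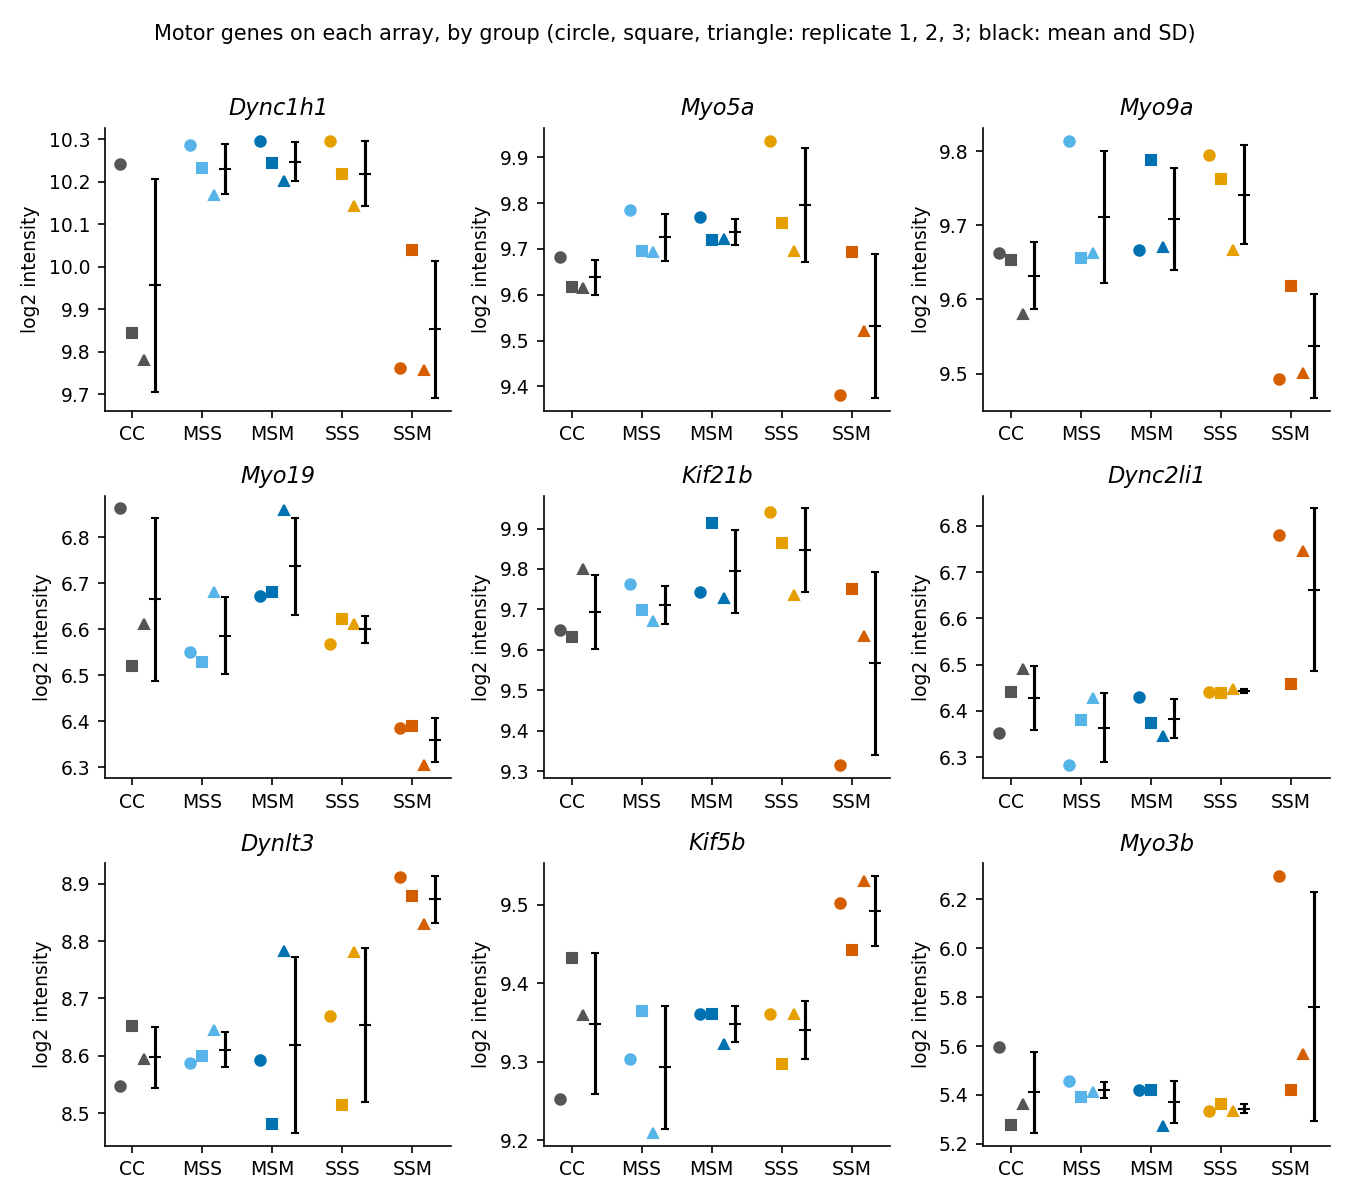
Log2 intensity (vertical axis) of 9 motor genes on each of the 15 arrays, by group; circles, squares and triangles are replicates 1, 2 and 3, and black marks show mean and SD. The SSM arrays of Dync1h1, Myo19, Dynlt3 and Kif5b lie on one side of all MSS, MSM and SSS arrays, and Myo3b is high on SSM replicate 1 alone, at 6.30.

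The kinesins were split by role into 3 groups. 18 were listed as transport kinesins, most of which carry vesicles, organelles and receptors in axons and dendrites. 11 of them had a negative difference, and their median was -0.019. At unadjusted p under 0.05, 2 were higher and 1 was lower, against 8.71% and 0.662% of all genes. Without SSM replicate 1, 9 of the 18 were negative. Kif21b, a dendritic kinesin that also limits microtubule growth, read 9.94, 9.86 and 9.74 in SSS and 9.31, 9.75 and 9.63 in SSM, so the groups overlapped. Its other arrays read 9.65, 9.63 and 9.80 in CC, 9.76, 9.70 and 9.67 in MSS and 9.74, 9.91 and 9.73 in MSM. The difference of -0.28 (SE 0.097) was -0.15 without SSM replicate 1, which was its lowest array and the array with low hippocampal neuron and high striatal markers.

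Kif5b, the kinesin-1 heavy chain found in most cells, read 9.25, 9.43 and 9.36 in CC, 9.30, 9.36 and 9.21 in MSS, 9.36, 9.36 and 9.32 in MSM, 9.36, 9.30 and 9.36 in SSS, and 9.50, 9.44 and 9.53 in SSM. All SSM arrays lay above the arrays of the other 4 groups, and the difference from SSS was 0.15 (SE 0.060, adjusted p = 0.503). Its neuronal relatives differed the other way: Kif5a by -0.082 (SE 0.056) and Kif5c by -0.083 (SE 0.060), neither at an unadjusted p under 0.05. Kif17, a dendritic carrier of NMDA receptor vesicles, differed by 0.17 (SE 0.072), with SSS at 5.77, 5.56 and 5.79 and SSM at 5.99, 5.78 and 5.87, which overlapped. Its difference was 0.097 without SSS replicate 2, its lowest SSS array. Kif1a and Kif1b, which move synaptic vesicle precursors, differed by -0.11 (SE 0.062 for both). Kif1a ranged from 11.20 to 11.44, Kif1b from 10.63 to 10.93 and Kif5c from 10.56 to 10.75 over the 15 arrays. The kinesin light chains, which bind kinesin-1 to cargo, differed by 0.13 (SE 0.076) for Klc4, -0.013 (SE 0.056) for Klc1 and -0.023 (SE 0.066) for Klc3. Klc1 stayed between 10.85 and 11.01 over the 15 arrays, and Klc4 between 7.07 and 7.47, highest on SSM replicate 3, without which its difference was 0.058.

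The 11 kinesins of mitosis and cytokinesis had 9 positive differences and a median of 0.059, with 1 gene higher at unadjusted p under 0.05. Over all genes 74.0% were positive and 8.71% higher at that threshold. The median of all genes was 0.056, so that of this group lay near it. Kif2c, which takes tubulin off spindle microtubules, read 5.25, 5.33 and 5.32 in SSS and 5.60, 5.35 and 5.40 in SSM, without overlap, and differed by 0.15 (SE 0.067). Without SSM replicate 1, its highest SSM array, the difference was 0.077 and its unadjusted p was no longer under 0.05. Kif11, the motor that pushes spindle poles apart, read 6.13, 6.20 and 6.16 in SSS and 6.50, 6.15 and 6.30 in SSM and differed by 0.16 (SE 0.082, unadjusted p = 0.0756). 6 of the 11 were highest on SSM replicate 1. With quantile normalization 7 of the 11 were positive and with median centring 5, so the direction of this group depended on the scaling. 8 of 9 measured proliferation markers also had positive differences, with array means of 5.95 to 6.08 in SSS and 5.95 to 6.18 in SSM, and 0 of the 9 had an unadjusted p under 0.05. The part of cell number in the mitotic kinesins was not tested.

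Of the 8 measured kinesins of cilia and other roles, 7 had positive differences, against 74.0% of all genes, with a median of 0.11. Quantile normalization and median centring also gave 7. Without SSM replicate 3, 5 of the 8 were positive. Kif19a, which shortens ciliary microtubules, differed by 0.24 (SE 0.099), with SSS at 5.19, 5.39 and 5.26 and SSM at 5.72, 5.38 and 5.48. Kif27, needed for motile cilia, read 5.19, 4.96 and 5.16 in SSS and 5.47, 5.22 and 5.24 in SSM, without overlap, and differed by 0.20 (SE 0.091). Kif2b, a microtubule depolymerase, differed by 0.14 (SE 0.064) and was highest on SSM replicate 3 at 4.35. Without that array the difference was 0.072 and its unadjusted p was no longer under 0.05. Kif9, a kinesin of motile cilia, had the widest range of this group, from 5.48 on MSM replicate 3 to 6.06 on SSM replicate 1. Ependyma and cilia markers moved with this group: 7 of 8 were higher in SSM, with array means of 5.97 to 6.20 in SSS and 6.00 to 6.70 in SSM, but 0 of the 8 had an unadjusted p under 0.05, and without SSM replicate 1 only 4 were higher. In CC they spanned 6.09 to 6.30, in MSS 6.00 to 6.19 and in MSM 5.95 to 6.18. Without SSM replicate 1, Kif19a differed by 0.15 and Kif27 by 0.12, and without SSS replicate 2 Kif27 differed by 0.13. The part of ependyma in the ciliary kinesins was not tested.

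**Figure D3:**
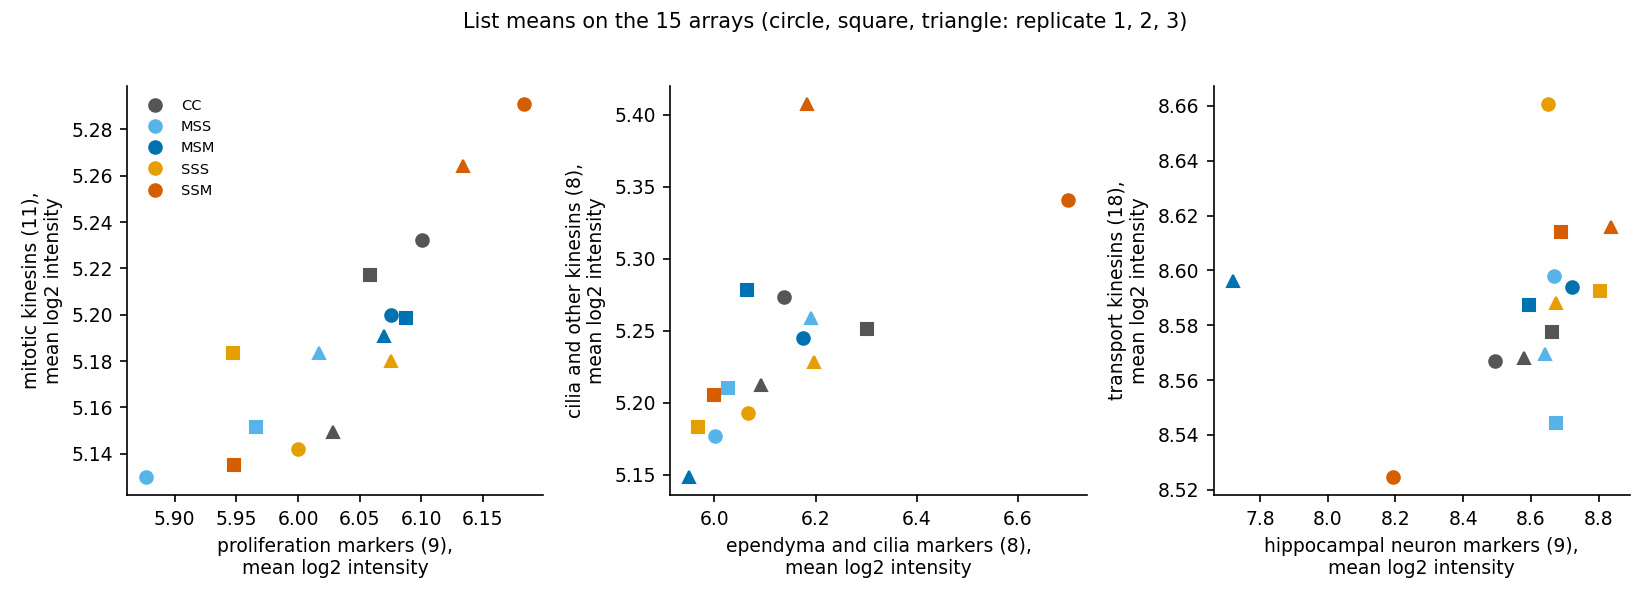
Mean log2 intensity of mitotic kinesins, kinesins of cilia and other roles, and transport kinesins (vertical axes) on the 15 arrays, coloured by group. The horizontal axes show that of proliferation, ependyma and hippocampal neuron markers. SSM replicate 1 has the highest mean of the mitotic kinesins, 5.29, and of the ependyma markers, 6.70, and the lowest mean of the transport kinesins, 8.52.

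Myosins gave 3 of the 5 lower genes. Myo5a, which draws endoplasmic reticulum into dendritic spines, read 9.68, 9.62 and 9.62 in CC, 9.79, 9.70 and 9.69 in MSS, 9.77, 9.72 and 9.72 in MSM, 9.94, 9.76 and 9.70 in SSS, and 9.38, 9.69 and 9.52 in SSM. SSM and SSS did not overlap, though SSM replicate 2 and SSS replicate 3 differed by little, and SSM replicate 1 was the lowest of all arrays. The difference was -0.26 (SE 0.078, unadjusted p = 0.00409) and became -0.19 without SSM replicate 1.

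Myo19 tethers mitochondria to actin. It read 6.86, 6.52 and 6.61 in CC, 6.55, 6.53 and 6.68 in MSS, 6.67, 6.68 and 6.86 in MSM, 6.57, 6.62 and 6.61 in SSS, and 6.39, 6.39 and 6.30 in SSM. All SSM arrays lay below the arrays of the other 4 groups, with an SD of 0.048 in SSM and 0.029 in SSS. The difference of -0.24 (SE 0.082, unadjusted p = 0.0105) lay between -0.30 and -0.21 over 24 alternative fits. Since SSM and SSS did not overlap, leaving out an array could not change its sign. Myo9a, a class IX myosin, read 9.66, 9.65 and 9.58 in CC, 9.81, 9.66 and 9.66 in MSS, 9.67, 9.79 and 9.67 in MSM, 9.79, 9.76 and 9.67 in SSS, and 9.49, 9.62 and 9.50 in SSM. SSM lay below SSS on all arrays, and the difference was -0.20 (SE 0.064, unadjusted p = 0.00641). This value comes from the brightest of 13 Myo9a probe sets. The 12 others differed by -0.14 to 0.058 with a median of -0.053, 8 of them below 0, and the mean over all probe sets differed by -0.053.

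Myo3b, a myosin of actin protrusions in sensory cells, read 5.33, 5.36 and 5.33 in SSS and 6.30, 5.42 and 5.57 in SSM, while CC read 5.60, 5.28 and 5.36, MSS 5.46, 5.39 and 5.41, and MSM 5.42, 5.42 and 5.27. SSM replicate 1 alone was far above the rest. The difference of 0.42 (SE 0.16, adjusted p = 0.496) was 0.15 without that array, whose striatal and ependymal markers were the highest of all; the part of such tissue was not tested. Of the 12 other unconventional myosins, the group that holds Myo3b, Myo9a and Myo19, 9 had negative differences. Myo18b, known from the muscle sarcomere, differed by -0.18 (SE 0.14) and varied widely within groups, from 9.24 to 9.76 in MSS. Among class I myosins, which tie membranes to actin, 4 of 7 were positive (3 with quantile normalization, 2 with median centring), and Myo1d had the widest range, from 5.13 to 5.65. Myo5b, the recycling-endosome member of class V, ranged from 7.48 on MSM replicate 3 to 8.05 and differed by -0.022 (SE 0.11).

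The heavy chains of conventional myosin gave no gene with an unadjusted p under 0.05. The non-muscle chains Myh9 and Myh10, which contract the cell cortex, differed by -0.065 (SE 0.095) and -0.048 (SE 0.079). Over the 15 arrays Myh9 lay between 7.87 and 8.28 and Myh10 between 9.81 and 10.15. Among 11 muscle chains 6 differences were positive, but 3 with quantile normalization and 0 with median centring, so their direction depended on the scaling. Myh1 and Myh2, fast skeletal muscle chains, differed by -0.15 (SE 0.087) and -0.10 (SE 0.070), and by -0.087 and -0.049 without SSM replicate 1. Without SSS replicate 1 Myh2 differed by -0.044. Skeletal and cardiac muscle markers averaged 5.39 to 5.52 in SSS and 5.42 to 5.65 in SSM. Of these 8 markers 6 were higher in SSM, near the 74.0% of all genes.

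Promoters were taken from RefSeq on GRCm38.p6 as the 250 bases before and 50 bases after each listed start, and 76 of the 91 motor genes had an entry, with 89 promoters. They are shown for the lower genes with an entry, a set chosen by its differences, and for 2 mitotic kinesins as the group with the most uniform motif. A GC box was searched as GGGCGG or its reverse complement CCGCCC, with no mismatch, and it is in capitals in the first 4 sequences. These belong to Dync1h1 (chr12:110601145-110601444, plus strand), Myo5a (chr9:75070956-75071255, plus strand), Myo9a (chr9:59750924-59751223, plus strand) and Myo19 (chr11:84879920-84880219, plus strand). In Kif11 (chr19:37376132-37376431, plus strand) and Kif23 (chr9:61946750-61947049, minus strand), capitals mark a CCAAT box or its reverse complement ATTGG, and the cell cycle homology region TTTGAA or TTCAAA.
Dync1h1: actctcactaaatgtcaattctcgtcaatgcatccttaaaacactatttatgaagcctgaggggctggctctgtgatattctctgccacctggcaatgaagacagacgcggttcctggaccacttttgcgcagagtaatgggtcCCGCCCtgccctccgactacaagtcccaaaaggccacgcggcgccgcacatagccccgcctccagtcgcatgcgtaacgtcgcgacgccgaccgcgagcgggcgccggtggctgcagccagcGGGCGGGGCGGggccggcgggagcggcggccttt
Myo5a: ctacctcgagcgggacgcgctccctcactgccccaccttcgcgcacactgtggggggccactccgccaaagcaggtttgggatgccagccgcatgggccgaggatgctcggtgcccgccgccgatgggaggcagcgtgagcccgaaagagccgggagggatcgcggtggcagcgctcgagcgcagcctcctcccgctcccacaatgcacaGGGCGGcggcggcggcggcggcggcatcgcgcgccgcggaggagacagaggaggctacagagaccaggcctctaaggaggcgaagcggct
Myo9a: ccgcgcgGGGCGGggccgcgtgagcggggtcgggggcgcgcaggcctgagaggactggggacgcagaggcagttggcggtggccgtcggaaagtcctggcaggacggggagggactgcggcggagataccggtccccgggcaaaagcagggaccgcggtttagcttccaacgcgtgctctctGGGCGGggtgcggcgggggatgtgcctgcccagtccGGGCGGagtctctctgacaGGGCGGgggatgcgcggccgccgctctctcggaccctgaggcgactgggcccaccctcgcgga
Myo19: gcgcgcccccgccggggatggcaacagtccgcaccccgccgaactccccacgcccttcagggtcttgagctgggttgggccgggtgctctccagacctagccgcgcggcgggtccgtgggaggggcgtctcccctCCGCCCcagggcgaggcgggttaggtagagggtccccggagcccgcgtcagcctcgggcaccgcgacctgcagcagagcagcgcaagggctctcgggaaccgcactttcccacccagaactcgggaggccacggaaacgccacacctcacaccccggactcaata
Kif11: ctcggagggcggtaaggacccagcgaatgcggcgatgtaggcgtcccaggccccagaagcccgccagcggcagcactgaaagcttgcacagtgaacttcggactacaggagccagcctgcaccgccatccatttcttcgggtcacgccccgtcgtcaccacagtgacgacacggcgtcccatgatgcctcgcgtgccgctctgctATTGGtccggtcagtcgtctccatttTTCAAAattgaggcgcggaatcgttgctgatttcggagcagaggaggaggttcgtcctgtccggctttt
Kif23: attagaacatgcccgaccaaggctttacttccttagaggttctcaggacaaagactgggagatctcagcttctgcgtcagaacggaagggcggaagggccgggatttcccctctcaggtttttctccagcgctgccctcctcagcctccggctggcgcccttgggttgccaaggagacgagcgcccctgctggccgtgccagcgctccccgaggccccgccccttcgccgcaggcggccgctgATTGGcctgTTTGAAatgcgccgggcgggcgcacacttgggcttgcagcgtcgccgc

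All 4 lower genes with an entry held a GC box, as did 54 of 89 motor gene promoters (60.7%) and 35.7% of 32851 promoters of all genes. Among the higher genes 2 of 6 promoters (33.3%) held it, and that of Dynlt3 had 2 matches, so it was not confined to lower genes. Dync1h1 held 3 matches, of which 2 overlap by 1 base, Myo9a held 4, and Myo5a and Myo19 held 1 each. The GC content of these 4 promoters had a median of 71.8%, against 59.3% for motor genes and 52.7% for all, and a GC-rich window holds the GC box more often by its composition. Among the transport kinesins 14 of 17 promoters (82.4%) held it, and among muscle heavy chains 1 of 11 (9.09%). The TATA box, searched as TATAAA or TTTATA, was in 7 of 11 muscle heavy chain promoters (63.6%), in 16.9% of motor gene promoters and in 13.6% of all. The cell cycle homology region was in 9 of 10 mitotic kinesin promoters (90%), against 17.9% of all promoters, and the CCAAT box in 6 of 10 (60%), against 37.4%. A match is a description of these letters and not a site. Kif21b, Dync2li1 and Kif5b are named here without a sequence, and that of Dynlt3 is not shown.

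The scaling of the arrays moved these counts. The arrays as deposited gave 5 lower and 9 higher motor genes at unadjusted p under 0.05. Quantile normalization gave 15 lower (16.5%, against 3.22% of all genes) and 2 higher (2.2%, against 4.06%). Median centring gave 16 lower (17.6%, against 3.88%) and 1 higher (1.1%, against 2.61%). The 5 lower genes of the deposited scale were among the lower genes under both. Both scalings moved the differences of these 5 further below 0, so their staying lower is no separate support. Dync1h1 went from -0.37 to -0.41 with quantile normalization and -0.43 with median centring. The lower genes added under quantile normalization included the neuronal transport kinesins Kif1a at -0.16 (SE 0.059), Kif1b at -0.17 (SE 0.060), Kif5a at -0.12 (SE 0.057) and Kif5c at -0.14 (SE 0.055). Without SSM replicate 3 there were 9 lower (9.89%, against 2.86%) and 7 higher (7.69%, against 4.32%). Without SSM replicate 1 there were 4 lower (4.4%, against 0.231%), Kif21b being lost, and 3 higher (3.3%, against 10.4%). The lower share of motor genes was above that of all genes in each of these 5 settings, and the higher share was above it in 2 of them. The adjusted p of all 91 stayed above 0.05 in each.

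**Figure D4:**
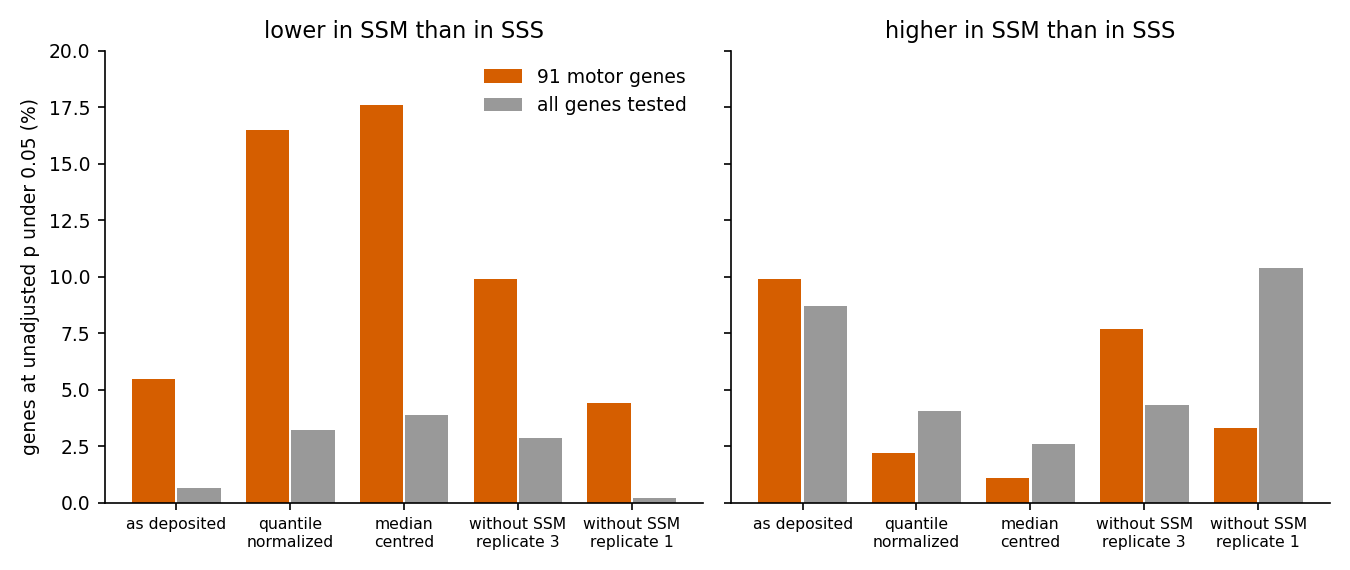
Share of motor genes (orange) and of all genes (grey), in percent, with unadjusted p under 0.05 in SSM against SSS, lower on the left and higher on the right, under 5 settings. Lower motor genes go from 4.4% without SSM replicate 1 to 17.6% with median centring, above the grey bar each time.

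Partners of the motors were described from 5 lists, and 0 of their genes passed the adjusted threshold between SSM and SSS. Their counts are to be read against all genes, of which 74.0% had positive differences. At unadjusted p under 0.05, 8.71% of all genes were higher and 0.662% lower. Of 20 measured genes of dynactin, the dynein activator, and of other dynein regulators, 14 had positive differences (8 with quantile normalization, 6 with median centring) and 0 had an unadjusted p under 0.05, with Dctn3 at 0.12 and Dctn6 at 0.15. Among 17 kinesin adaptors and further kinesin genes 1 was higher at that threshold, the axonal adaptor Fez1 at 0.17, and the mitochondrial adaptor Rhot1 differed by 0.11. Of 22 myosin light chains, kinases and adaptors 1 was higher, the class VI adaptor Gipc1 at 0.17, and the tropomyosin Tpm1 differed by 0.11. Axonemal dyneins beat motile cilia. 12 of the 15 measured were positive and 1 was higher, Dnal1 at 0.21, while Dnali1 differed by 0.31 and was 6.18 on SSM replicate 1 against at most 5.62 elsewhere. Of 18 tubulins and microtubule-associated proteins, which form and bind the tracks of kinesin and dynein, 14 were negative (8 without SSM replicate 1) and 1 was lower, the axonal protein Map1b at -0.28. Map1b read 11.92, 11.90 and 11.76 in SSS and 11.33, 11.75 and 11.67 in SSM, all below SSS. The lowest of these was SSM replicate 1, the array with low hippocampal neuron and high striatal markers. SSM replicate 2 and SSS replicate 3 differed by little. Tuba4a differed by 0.18.

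Under mild stress the motor genes differed little between morphine and saline. 0 of 91 passed the adjusted threshold (0% of all genes). At unadjusted p under 0.05, 1 was higher (1.58% of all genes were) and 0 were lower (0.988% of all genes were). The 1 gene was Dync1li1, a cargo-binding chain of dynein 1, with MSS at 9.23, 9.32 and 9.26 and MSM at 9.32, 9.37 and 9.58. MSM replicate 3 alone was high, and the difference was 0.15 (SE 0.069, unadjusted p = 0.0431). Myo19 differed by 0.15 (SE 0.082) and Kif5a by 0.10 (SE 0.056). With quantile normalization 0 were higher and 0 lower, against 1.74% and 2.01% of all genes, and with median centring likewise 0 and 0, against 1.06% and 2.82%.

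The difference between the 2 morphine effects was tested as an interaction. 0 motor genes passed (0% of all genes), with an adjusted p of 0.959 for the smallest. At unadjusted p under 0.05, 6 motor genes (6.59%) were lower, against 0.386% of all genes, and 0 were higher, against 3.26%. For Myo19 the effect of morphine was 0.15 under mild and -0.24 under severe stress, an interaction of -0.39 (SE 0.12). For Kif21b it was 0.083 (SE 0.097) and -0.28, an interaction of -0.36 (SE 0.14). Dync1h1 had 0.018 and -0.37, an interaction of -0.38 (SE 0.15). Myo5a, Kif5a and Myo9a were the others. All 6 except Kif5a, at -0.082, were already among the genes lower in SSM than in SSS at unadjusted p under 0.05. The interaction uses the same SSM and SSS arrays as that comparison. Quantile normalization gave 6 lower, against 1.69% of all genes, and 1 higher, against 2.42%. Median centring gave 7 lower, against 1.32%, and 0 higher, against 2.18%.

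**Figure D5:**
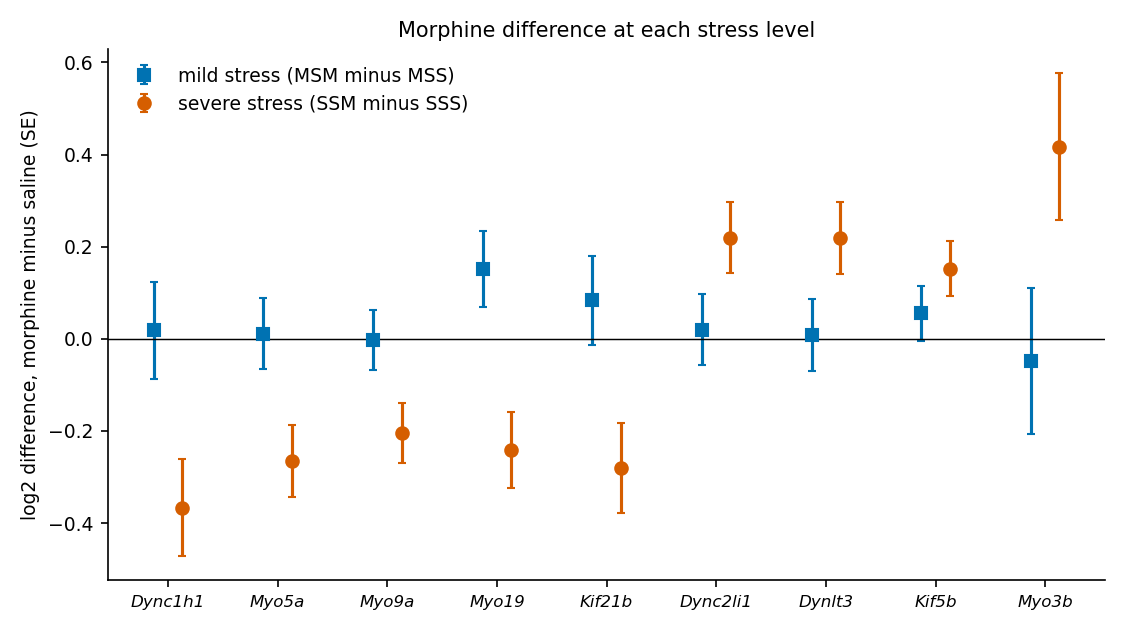
Log2 difference between morphine and saline, with SE, for 9 motor genes under mild (blue) and severe (orange) stress. Under mild stress Myo19 (0.15, SE 0.082), Kif21b (0.083, SE 0.097), Dync1h1 (0.018) and Myo5a (0.011) were above 0, none at unadjusted p under 0.05. Under severe stress all of them were below 0. The interaction of no gene passed the adjusted threshold.

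Severe was compared with mild stress within each treatment. These groups differ in SS number too, and the 2 cannot be told apart. With saline, 0 motor genes passed (0% of all genes) and 0 had an unadjusted p under 0.05 in either direction by limma, against 1.28% of all genes higher and 1.57% lower. Quantile normalization gave 2 higher, against 2.99% of all genes, and 1 lower, against 1.73%. Median centring gave 0 of each, against 1.53% and 2.26%. The smallest p-values belonged to Dync1li2 at -0.12 (SE 0.057), Myo9b at -0.20 (SE 0.10) and Kif19a at -0.18 (SE 0.099).

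With morphine, 0 of 91 passed (0% of all genes), but 7 motor genes (7.69%) were higher at unadjusted p under 0.05, against 12.1% of all genes, and 7 (7.69%) lower, against 2.26%. Myo19 was lower in SSM than in MSM by 0.38 (SE 0.082), with the smallest adjusted p of the motor genes, 0.156, and no overlap. Dync1h1 was lower by 0.39 (SE 0.11, adjusted p = 0.177). Dync2li1 was higher by 0.28 (SE 0.077, adjusted p = 0.186), and again the groups did not overlap. Myo9b, the other class IX myosin, read 7.49, 7.72 and 7.52 in MSM and 7.17, 7.28 and 7.23 in SSM. Its MSS arrays read 7.47, 7.56 and 7.54, its SSS arrays 7.06, 7.43 and 7.47 and its CC arrays 7.63, 7.34 and 7.43, so that every array of the 2 severe groups lay below every array of the 2 mild groups. Quantile normalization gave 5 higher, against 9.01% of all genes, and 14 lower, against 4.26%. Median centring gave 4 higher, against 6.36%, and 13 lower, against 4.93%. Without SSM replicate 2 the smallest adjusted p in this comparison was 0.0542.

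Averaged over treatments, severe against mild stress called 2 genes (0.01%) over the whole array and 0 motor genes. 6 motor genes (6.59%) were higher at unadjusted p under 0.05, against 9.28% of all genes, and 6 (6.59%) lower, against 2.8%. Myo9b had the smallest adjusted p, 0.150, at -0.28 (SE 0.072). Dync2li1 was at 0.18 (SE 0.054) and Myo19 at -0.18 (SE 0.058). Quantile normalization gave 7 higher, against 9.15% of all genes, and 9 lower, against 4.08%. Median centring gave 3 higher, against 5.73%, and 8 lower, against 5.02%. Averaged over stress levels, morphine against saline called 0 motor genes (0% of all genes), with 5 (5.49%) higher at unadjusted p under 0.05, against 7.04% of all genes, and 3 (3.3%) lower, against 0.597%. The smallest p-values were those of Kif2c at 0.12 (SE 0.047), Klc4 at 0.13 (SE 0.054) and Kif5b at 0.10 (SE 0.042), all with an adjusted p of 0.649. The 3 lower genes were Dync1h1, Myo5a and Myo9a. Quantile normalization gave 1 higher, against 3.57% of all genes, and 7 lower, against 3.26%. Median centring gave 0 higher, against 2.22%, and 7 lower, against 4.70%.

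The 4 stressed groups were each compared with the untreated controls, and share those 3 arrays. Again the SS number and the group cannot be told apart. In each of the 4 comparisons 0 motor genes passed (0% of all genes). MSS had 2 higher (1.06% of all genes) and 0 lower (1.16%) at unadjusted p under 0.05. MSM had 5 higher (1.58%) and 0 lower (1.18%). SSS had 2 higher (0.933%) and 1 lower (1.09%), and SSM had 5 higher (7.93%) and 2 lower (1.08%). With quantile normalization MSS had 2 higher (1.52% of all genes) and 1 lower (1.93%), MSM 3 (1.70%) and 0 (2.51%), and SSS 4 (2.41%) and 1 (1.26%). SSM had 3 higher (4.82%) and 8 lower (2.69%). With median centring MSS had 2 higher (2.09%) and 0 lower (1.24%), MSM 2 (1.53%) and 0 (2.26%), and SSS 3 (1.61%) and 1 (1.254%). SSM had 3 higher (2.67%) and 5 lower (3.36%).

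Dync1h1 was higher than in CC by 0.27 in MSS, 0.29 in MSM and 0.26 in SSS (SE 0.11 each), and SSM differed from CC by -0.10. These 3 differences rest on CC replicates 2 and 3, since CC replicate 1 at 10.24 matched the stressed arrays. Myh11, the smooth muscle heavy chain, was higher in MSS by 0.31 (SE 0.11), with MSS at 5.92, 5.44 and 5.38 and CC at 5.33, 5.26 and 5.23, which did not overlap. In MSM it was higher by 0.25 (SE 0.11), with arrays at 5.38, 5.67 and 5.53, again without overlap. It was highest of all on MSS replicate 1, at 5.92. The mean of 8 smooth muscle and pericyte markers was 6.61 to 6.79 in MSS, 6.68 to 6.84 in MSM and 6.49 to 6.73 in CC, and their part in these differences was not tested. Dync2h1 was higher in MSM by 0.19 (SE 0.081) and differed by 0.16 (SE 0.081) in MSS. Myo1d was higher in MSM by 0.24 (SE 0.087) and in SSM by 0.27 (SE 0.087), without overlap. SSM had Myo19 lower by 0.31 (SE 0.082) and Dynlt3 higher by 0.28 (SE 0.079), with adjusted p = 0.529 for both. SSS had Kif1b higher by 0.15 (SE 0.062) and Dync1li2 lower by 0.12 (SE 0.057).

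Tested over all 5 groups at once by limma's F-test, 0 motor genes passed (0% of all genes), and 8 (8.79%) had an unadjusted p under 0.05, against 7.24% of all genes. These were Dync1h1, Myo19, Dync2li1, Dynlt3, Myo9b, Myo5a, Myo9a and Kif5b, with adjusted p from 0.540 to 0.688. Over the 15 arrays the motor genes varied by 0.14 to 1.02 between their lowest and highest array, with Myo3b the widest. Dync1i1, the neuronal intermediate chain of dynein 1, was the widest of the larger dynein chains, lowest on SSM replicate 1 at 9.25 and highest on CC replicate 3, a span of 0.75.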

How the data were processed

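RNA was measured on 15 Affymetrix gene arrays, 3 in each of 5 groups. The deposited table holds log2 values that the authors made with RMA, per the submitters' processing notes, which name neither software nor version. Of 35557 probe sets, 23410 were annotated, 21789 with 1 symbol, 1621 with several and 12147 with none listed; the brightest probe set per symbol gave 19938 genes. limma 3.58.1 in R 4.3.3 (lmFit, eBayes) was fitted to the deposited values with 1 mean per group and 10 residual degrees of freedom. Alternatives were quantile normalization, median centring, brighter genes only, all probe sets averaged, only the groups compared, trend and robust eBayes, the SS or H number as a random block, and leaving out arrays. Named genes were, per family, those with the smallest p between SSM and SSS and the brightest; every gene with unadjusted p under 0.05 and no overlap there; the 3 with the smallest p in each other comparison; the one with the widest range per role; and up to 2 per partner list. Kif2b and the further genes with values were chosen after these were seen. The members and lists were chosen with earlier results of these data known. Data were simulated for SSM against SSS with 19938 genes, 200 of them changed by 1.25- to 3-fold. The fit recovered 41.6% at 1.25-fold, 88.2% at 1.5-fold and 99.4% at 3-fold, with a mean of 8.8 unchanged genes called per simulation. The noise was drawn independently for each gene and array, with no array shifted as a whole or holding other tissue. These shares therefore do not give the recovery for the real arrays. Arrays correlated at 0.990 to 0.998 with each other; precision is limited by 3 arrays per group. The labels do not say what the H numbers in the titles mean, and SSM and SSS share none. Deviations from the group means correlated at -0.39 to -0.069 for 3 CC and MSM pairs with the same number and at -0.30 to -0.14 for 3 pairs of MSM with SSM or SSS, but at 0.43 and 0.18 for CC and SSM, 0.16 for CC and SSS and 0.12 for MSS and SSM, so the numbers were not used as pairs.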

Additional observations from a re-analysis of the deposited data

How the results depend on the processing

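Between SSM and SSS 0 motor genes passed the adjusted threshold under every alternative run, and the same holds for the other comparisons and the F-test. Among counts at unadjusted p under 0.05, the 9 higher genes became 2 with quantile normalization, 1 with median centring, 3 among genes brighter than the median gene, 3 with only the groups compared, 3 without both SSM replicate 1 and MSM replicate 3, and 3 to 11 when 1 array was left out, lowest without SSM replicate 1. Without SSS replicate 2 they were 4. The 5 lower genes became 15 with quantile normalization, 16 with median centring and 4 to 9 when 1 array was left out, 9 without SSM replicate 2 or 3. The cause was not tested. With the H number as a random replicate block, whose correlation was -0.063, there were 7 higher and 5 lower genes, and with the SS number as a random block 8 and 5. No call changed with the block. Klc3 reversed to 0.020 without SSM replicate 1, with or without MSM replicate 3, and to 0.00065 without SSM replicate 2, and its range when 1 array was left out was -0.088 to 0.020. Dynlrb2 reversed to -0.017 without SSM replicate 1, with or without MSM replicate 3, and ranged from -0.017 to 0.36 when 1 array was left out. Within SS number 8, where each group has 1 array, Klc4 reversed to -0.020. Over 24 fits Dync1h1 lay between -0.46 and -0.32 with adjusted p from 0.127 to 0.893, Myo5a between -0.35 and -0.19, and Myo9a between -0.27 and -0.053.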

Other observations

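The 5 motor genes lower in SSM than in SSS at unadjusted p under 0.05 have gene spans of 31.1 to 178 kb in RefSeq. Their median is 65.6 kb. The 9 higher ones span 2.27 to 390 kb, which holds the whole range of the lower ones, with a median of 29.1 kb. The median was 49.4 kb for the motor genes and 17.7 kb for all genes. These medians describe genes chosen by their differences.

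Probe sets of one gene could differ. Myo18b has 20 probe sets. The brightest had a log2 mean of 9.56 and differed by -0.18 between SSM and SSS. The 19 others had means from 4.38 to 8.29 and differed by -0.24 to 0.12, 12 of them below 0.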
